A study of Mus musculus with 6 samples.

Results

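The 8 lysosomal cathepsin genes were examined in mouse macrophages grown on 3 coated zinc alloys. They were taken by gene symbol, with earlier results of these data known: Ctsa, Ctsb, Ctsc, Ctsd, Ctsh, Ctsl, Ctss and Ctsz. They are 8 of the 54532 genes in the deposited tables, each matched to 1 gene. The cells were RAW 264.7, a macrophage-like line from a tumour that a murine leukaemia virus had induced. They had been kept for 3 days on calcium phosphate (CaP) coated metal, which was zinc (CaP Zn), a zinc-manganese alloy (CaP Zn0.8Mn) or a zinc-manganese-lithium alloy (CaP Zn0.8Mn0.1Li), and their polyadenylated RNA was sequenced. All 3 groups share the coating, the zinc base, the line and the culture time, and each has 2 libraries. Cells on a surface with no zinc were not analysed here.

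Cathepsins are proteases of the endosome and lysosome, made as inactive precursors, carried there mainly by mannose 6-phosphate receptors and activated at acid pH. In macrophages they break down phagocytosed and autophagic cargo, trim the invariant chain and antigens for presentation on MHC class II, and are partly secreted, where they can degrade matrix. The genes examined cover 3 catalytic types: the aspartic protease cathepsin D, the serine carboxypeptidase cathepsin A, and the cysteine proteases B, C, H, L, S and Z.

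Library totals ran from 14944070 to 17709290 counts, and 3 counts, the upper limit that a count of 0 allows, correspond to between 0.169 and 0.201 CPM (counts scaled to library size). The library CaP Zn0.8Mn replicate 1 stood apart: mitochondrially encoded genes took 7.88% of its counts, against 1.82 to 2.15% in the other 5. Values are therefore given with all 6 libraries and, as a choice made after the data were seen, with the 5 that remain without it. The labels do not say whether replicates are separate cultures, so a p-value here reflects the spread among 6 libraries, and that spread may be technical. Of 10 macrophage markers, 9 had a mean of at least 1 CPM, and their summed level was lowest in CaP Zn0.8Mn replicate 1 at 9608 CPM and highest in CaP Zn0.8Mn replicate 2 at 16752 CPM. That sum is mostly Lyz2: without it CaP Zn0.8Mn replicate 1 was highest, at 3746 CPM against 1922 to 2203 CPM. Lymphocyte and epithelial or endothelial markers had 0 genes at 1 CPM, and of the osteoblast and fibroblast markers 1 of 10 reached it, with Col1a2, Col3a1, Pdgfra, Dcn and Lum at 0.

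Many lysosomal genes carry a palindromic element that the transcription factor TFEB is known to bind, with the core CACGTG and the longer form TCACGTGA. The start sites of the 8 cathepsin genes were searched for it, from 250 bases before to 50 bases after each start. The sequences came from the RefSeq promoter table of build GRCm38.p6. That table matched 6 of the 8 genes, with 7 promoters, since Ctsa has a pair of starts. Ctsb and Ctsh had no entry. The core, which reads the same on both strands and lies within the longer form, was found in 3 of the 7 promoters (42.9%), against 2346 of 32817 promoters of all genes (7.15%). The longer form was found in 2 of the 7 (28.6%), against 320 of all (0.975%). Windows of 30 bases around each match are printed on the gene's strand with the core in capitals, so that the flanks can be compared. A match describes letters and is not a mapped binding site.
Ctsa, chr2:164833749-164833778, core from base -12 of the second start: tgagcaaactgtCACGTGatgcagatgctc
Ctsa, chr2:164833766-164833795, core from base 5 of the second start: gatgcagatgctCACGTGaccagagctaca
Ctsd, chr7:142387908-142387937, core from base -98: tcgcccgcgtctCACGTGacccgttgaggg
Ctsd, chr7:142388048-142388077, core from base -245: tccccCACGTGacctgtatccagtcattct
Ctsl, chr13:64370739-64370768, core from base -236: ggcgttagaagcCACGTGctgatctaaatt
Both matches of Ctsa and the match of Ctsd nearer its start have the longer form, and the other match of Ctsd and that of Ctsl do not. The promoters of Ctsc, Ctss and Ctsz and the first promoter of Ctsa held neither form within this window.

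Levels per length spanned the family widely, and the lower 4 genes held the same rank in every library. Between genes, levels were compared as deposited FPKM, which divides by gene length. Cathepsin S, the elastin-degrading and invariant chain-cleaving protease of antigen-presenting cells, had a mean of 551 FPKM over the 6 libraries (485 to 611), cathepsin Z a mean of 528 (322 to 619), cathepsin D a mean of 502 (285 to 635) and cathepsin B a mean of 428 (342 to 494). The ranges of these 4 overlapped: Ctss and Ctsz held ranks 1 to 3, Ctsd ranks 1 to 4 and Ctsb ranks 2 to 4, depending on the library. Ctsa at 197 FPKM (134 to 223), Ctsl at 151 (56.5 to 190), Ctsc at 19.1 (12.4 to 22.2) and Ctsh at 1.64 (1.37 to 1.95) held ranks 5, 6, 7 and 8 in all 6 libraries. The range of Ctsa overlapped that of Ctsl, although Ctsa was the higher of the pair within every library. The length behind these values is that of all annotated exons joined. With the median length of the coding transcripts in its place, the means over the same 6 libraries were 583 FPKM for Ctsd, 552 for Ctss, 546 for Ctsb and 528 for Ctsz, so the order of the top 4 rests on the length chosen.

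The 8 genes together took 0.658% and 0.748% of all counts in the CaP Zn libraries, 0.529% and 0.837% in those of CaP Zn0.8Mn, and 0.831% and 0.803% in those of CaP Zn0.8Mn0.1Li. CaP Zn0.8Mn replicate 1 was the lowest of the 6 and its partner the highest, so this group spans the whole range, while both CaP Zn0.8Mn0.1Li libraries lay above both CaP Zn libraries. Exact binomial 95% intervals, which cover counting error only, were narrow, from 0.526 to 0.533% in the lowest library and from 0.833 to 0.842% in the highest. The mean share was 0.703% ± 0.0640 (SD, n = 2) on CaP Zn, 0.683% ± 0.218 (SD, n = 2) on CaP Zn0.8Mn and 0.817% ± 0.0193 (SD, n = 2) on CaP Zn0.8Mn0.1Li. The difference of CaP Zn0.8Mn0.1Li from CaP Zn was 0.114 percentage points (two-sided exact permutation test, p = 0.333), and p = 0.333 is the smallest that 2 libraries against 2 allow. CaP Zn0.8Mn differed from CaP Zn by -0.0198 percentage points (exact permutation p = 1), and by 0.134 without its replicate 1. CaP Zn0.8Mn0.1Li differed from CaP Zn0.8Mn by 0.134 percentage points (exact permutation p = 1) and by -0.0201 without that library. In these bulk libraries, fewer cells of a type and less RNA per cell cannot be told apart.

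**Figure D1:**
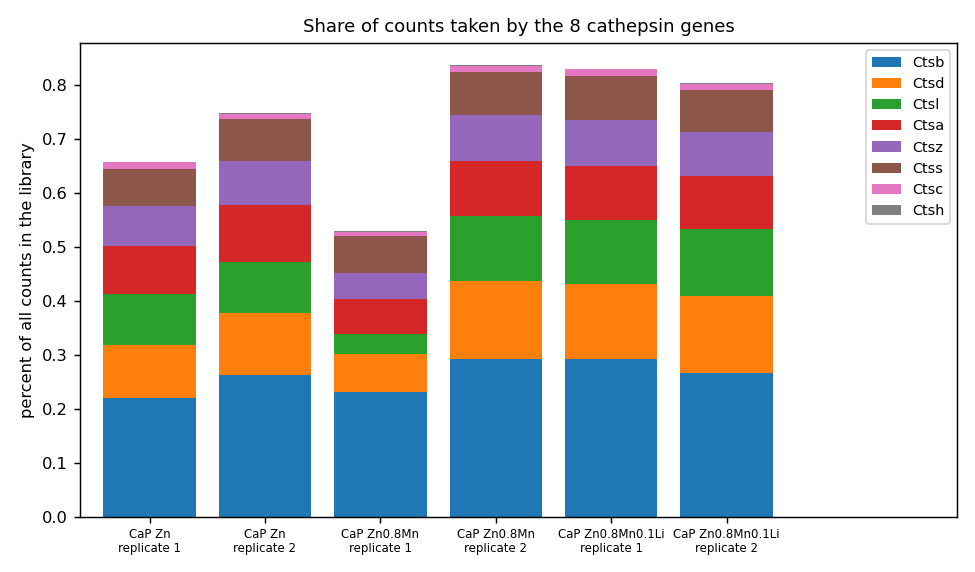
Percent of all counts in each of the 6 libraries (bars, from 0) taken by the 8 cathepsin genes, stacked by gene. The stacks run from 0.529% in CaP Zn0.8Mn replicate 1 to 0.837% in CaP Zn0.8Mn replicate 2, and cathepsin B is the largest segment in all 6.

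Cathepsin B supplied 33.1 to 35.2% of the cathepsin counts in 5 libraries and 43.7% in CaP Zn0.8Mn replicate 1. Cathepsin L supplied 12.7 to 15.4% in those 5 and 7.20% in that library, so the low total there was not an even scaling of the family. Cathepsin D supplied 14.9 to 17.8% in the 5 and 13.1% in that library.

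Cathepsin D, the aspartic endopeptidase that also activates other lysosomal precursors, varied most over the 5 libraries other than CaP Zn0.8Mn replicate 1. Ctsd (ENSMUSG00000007891, chr7:142375911-142388038 on the minus strand, GRCm38) stood at 932 and 1178 CPM on CaP Zn, 687 and 1497 CPM on CaP Zn0.8Mn, and 1424 and 1432 CPM on CaP Zn0.8Mn0.1Li. Both lithium alloy libraries and CaP Zn0.8Mn replicate 2 lay above both CaP Zn libraries, and CaP Zn0.8Mn replicate 1 lay below all others. On CaP Zn0.8Mn0.1Li against CaP Zn its log2 fold change was 0.44 ± 0.41 (SE), with an adjusted p of 1.00 in edgeR's quasi-likelihood test. Without CaP Zn0.8Mn replicate 1 the same log2 fold change of 0.44 had an SE of 0.13, a 95% interval of 0.15 to 0.72, an unadjusted p of 0.00489 and an edgeR adjusted p of 0.684 over all genes. Leaving out CaP Zn replicate 1 from the 6 libraries gave 0.28 and leaving out CaP Zn replicate 2 gave 0.62, so the size rests on which CaP Zn library is kept. Across all alternatives the adjusted p ran from 0.0982, with DESeq2 on 5 libraries, to 1.00, and Ctsd was not called in this comparison under any of them.

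Cathepsin L, a broad cysteine endopeptidase, gave the lowest level of CaP Zn0.8Mn replicate 1 relative to the other libraries. Ctsl (ENSMUSG00000021477, chr13:64359337-64370890, minus strand) stood at 906 and 965 CPM on CaP Zn, 376 and 1240.2 CPM on CaP Zn0.8Mn, and 1219 and 1235 CPM on CaP Zn0.8Mn0.1Li. In CaP Zn0.8Mn replicate 1 it was at 0.338 of the mean of the other 5 libraries. The genes that share exonic bases with it (Gm47123 and Gm49230) or with Ctsd (Gm49369) had 0 counts, so how shared reads were assigned there is not known. Among those 5, the CaP Zn pair lay below the 3 libraries from the alloys with manganese. The log2 fold change on CaP Zn0.8Mn0.1Li against CaP Zn was 0.39 ± 0.54 (SE; edgeR adjusted p = 1.00). On 5 libraries it was 0.39 ± 0.11 (SE), with a 95% interval of 0.15 to 0.64, an unadjusted p of 0.00375 and an edgeR adjusted p of 0.629. Its adjusted p over all alternatives ran from 0.0711, with DESeq2 on 5 libraries, to 1.00.

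Cathepsin B, a cysteine protease that also removes dipeptides from carboxyl ends, had more counts than any other gene examined. Ctsb (ENSMUSG00000021939, chr14:63122462-63145923, plus strand) stood at 2091 and 2659 CPM on CaP Zn, 2282 and 2998 CPM on CaP Zn0.8Mn, and 2999 and 2658 CPM on CaP Zn0.8Mn0.1Li. All 3 groups overlapped, and the highest CaP Zn library was level with the lower CaP Zn0.8Mn0.1Li library. In CaP Zn0.8Mn replicate 1 it was at 0.851 of the mean of the other 5, within the range of those 5. Its exons share 774 bases with Fdft1 on the opposite strand, which had 886 to 1597 counts. The deposited counting is not stated to use strand, so reads from the shared bases cannot be told apart.

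Cathepsin S differed little between libraries. Ctss (ENSMUSG00000038642, chr3:95526786-95556403, plus strand) stood at 666 and 779 CPM on CaP Zn, 677 and 809 CPM on CaP Zn0.8Mn, and 835 and 769 CPM on CaP Zn0.8Mn0.1Li, and all 3 groups overlapped. CaP Zn0.8Mn replicate 1 was at 0.877 of the mean of the other 5 libraries, between CaP Zn replicate 1 and the remaining 4.

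Of the exopeptidases, cathepsin C removes dipeptides from amino ends and activates granule serine proteases. Ctsc (ENSMUSG00000030560, chr7:88278085-88310888, plus strand) stood at 113 and 111 CPM on CaP Zn, 74.1 and 124 CPM on CaP Zn0.8Mn, and 129.7 and 119.6 CPM on CaP Zn0.8Mn0.1Li. Both lithium alloy libraries lay above both CaP Zn libraries, by a log2 fold change of 0.15 ± 0.27 (SE; edgeR adjusted p = 1.00), and CaP Zn0.8Mn replicate 1 lay below all 5 others. Cathepsin Z is a carboxypeptidase with an integrin-binding motif. Ctsz (ENSMUSG00000016256, chr2:174427493-174439039, minus strand) stood at 691 and 841 CPM on CaP Zn, 476 and 895 CPM on CaP Zn0.8Mn, and 878 and 822 CPM on CaP Zn0.8Mn0.1Li. CaP Zn0.8Mn replicate 1 lay below the other 5, and the CaP Zn0.8Mn0.1Li libraries lay on either side of the higher CaP Zn library. Its exons share 10 bases with Nelfcd on the opposite strand.

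Cathepsin H, an aminopeptidase, was the low outlier of the family in level and had the fewest counts, between 109 and 137 per library. Ctsh (ENSMUSG00000032359, chr9:90054152-90076089, plus strand) stood at 6.24 and 6.97 CPM on CaP Zn, 7.67 and 8.79 CPM on CaP Zn0.8Mn, and 8.27 and 6.73 CPM on CaP Zn0.8Mn0.1Li. It was the only one of the 8 that was not lower in CaP Zn0.8Mn replicate 1, at 1.04 of the mean of the other 5 libraries, and both CaP Zn0.8Mn libraries lay above both CaP Zn libraries.

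Cathepsin A, the serine carboxypeptidase that also protects beta-galactosidase and neuraminidase in a lysosomal complex, followed the majority. Ctsa (ENSMUSG00000017760, chr2:164832873-164841032, plus strand) stood at 858 and 1057.5 CPM on CaP Zn, 647 and 1039 CPM on CaP Zn0.8Mn, and 1029 and 986 CPM on CaP Zn0.8Mn0.1Li. The 3 groups overlapped, apart from CaP Zn0.8Mn replicate 1, which was at 0.651 of the mean of the others. Its exons share 495 bases with Pltp (947 to 1345 counts) and 324 bases with Neurl2 (136 to 196 counts), both on the opposite strand.

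**Figure D2:**
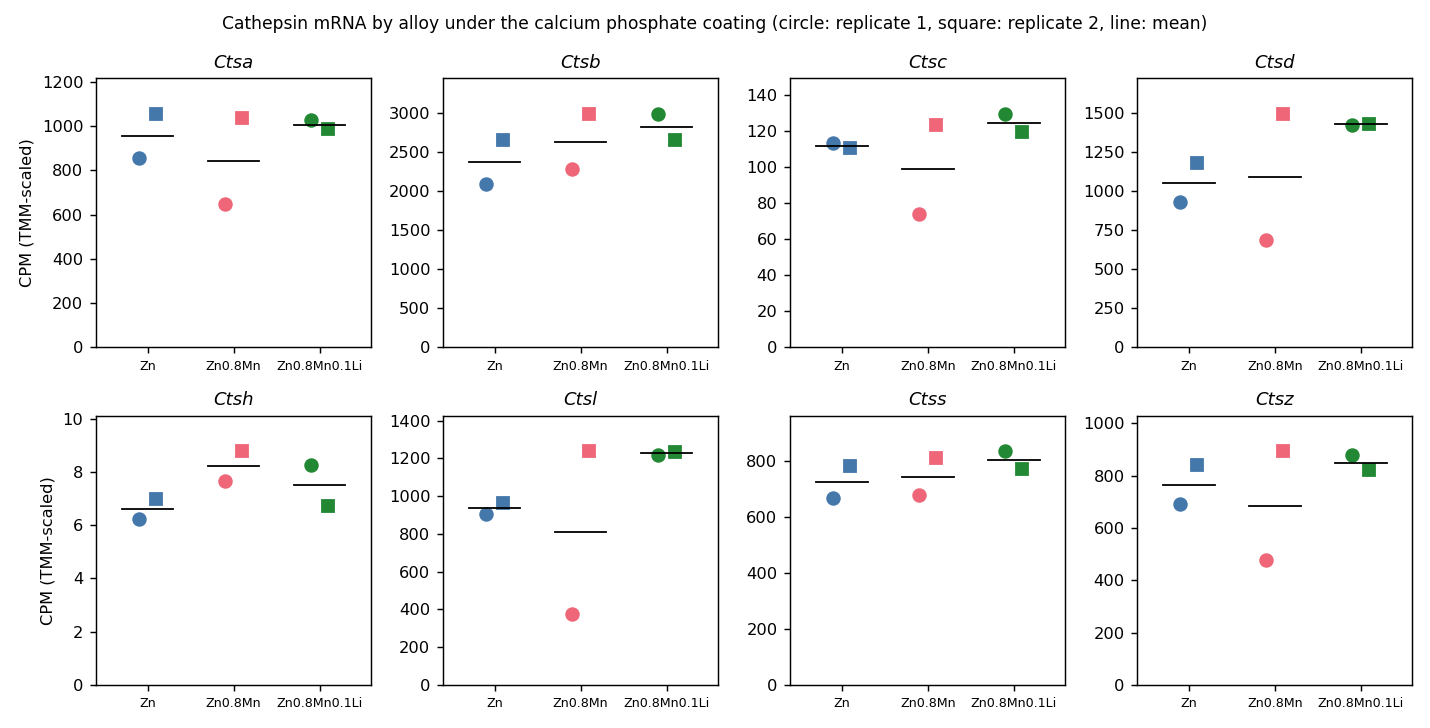
CPM of each cathepsin gene (1 panel a gene, linear axis from 0) by alloy, with circles for replicate 1, squares for replicate 2 and a line at the mean of the 2 libraries. The circle of CaP Zn0.8Mn is the lowest point for Ctsa, Ctsc, Ctsd, Ctsl and Ctsz, for example at 376 CPM for Ctsl.

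For 7 of the 8 genes, those of at least 20 CPM, CaP Zn0.8Mn replicate 1 lay below the mean of the other 5 libraries, with a median log2 ratio of -0.69 beside -0.09 for all 7229 genes of that level. Ctsl, Ctsd, Ctsz, Ctsc and Ctsa were over 1.5-fold lower in it, at 0.338, 0.532, 0.577, 0.621 and 0.651 of that mean. In all, 5 of 7 were over 1.5-fold lower, where 28.3% of all genes of that level were, and 0 of 7 were over 1.5-fold higher, where 19.6% were. Only Ctsl was over 2-fold lower, 1 of 7, where 16.4% of those genes were, and 8.19% were over 2-fold higher. The coefficient of variation over the other 5 libraries ran from 6.45% for Ctsc to 18.2% for Ctsd. This ratio compares 1 library with 5 and has no replicate. Mitochondrially encoded mRNAs were higher in that library, 8 of 8 by over 1.5-fold, with a median log2 ratio of 3.48. The 8 macrophage markers of at least 20 CPM split into 4 higher and 4 lower, with a median of 0.17: Csf1r stood at 1598 CPM against 319 to 374 CPM and Cd14 at 650.2 against 303 to 378, while Lyz2 stood at 5861 against 9182 to 14549. Of the 4 osteoclast markers of that level, which include Ctsk, 3 were over 1.5-fold lower, with a median log2 ratio of -2.04. Acp5 stood at 6.01 CPM against 36.8 to 52.1 and Mmp9 at 6.67 against 26.6 to 82.7, while Nfatc1 stood at 104.8 against 78.1 to 96.0. The macrophage markers with a mean under 20 CPM in the other 5 were higher there. Fcgr1 stood at 55.2 CPM against 15.3 to 22.6, and Mertk had 14 counts against 0 to 4. Of the osteoclast markers under 20 CPM in the other 5, Dcstamp at 26.6 CPM against 5.44 to 8.06 and Ocstamp at 3.63 against 0.323 to 0.845 were higher there. Oscar, at 5 counts against 6 to 15, was lower, and Calcr had 0 counts against 0 to 1. The part of any of these in the cathepsin values was not tested. Within the remaining 5 libraries, CaP Zn replicate 1 was the lowest for all of the genes except Ctsc, and its macrophage marker sum of 11104 CPM, mostly Lyz2, was also the lowest of those 5.

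**Figure D3:**
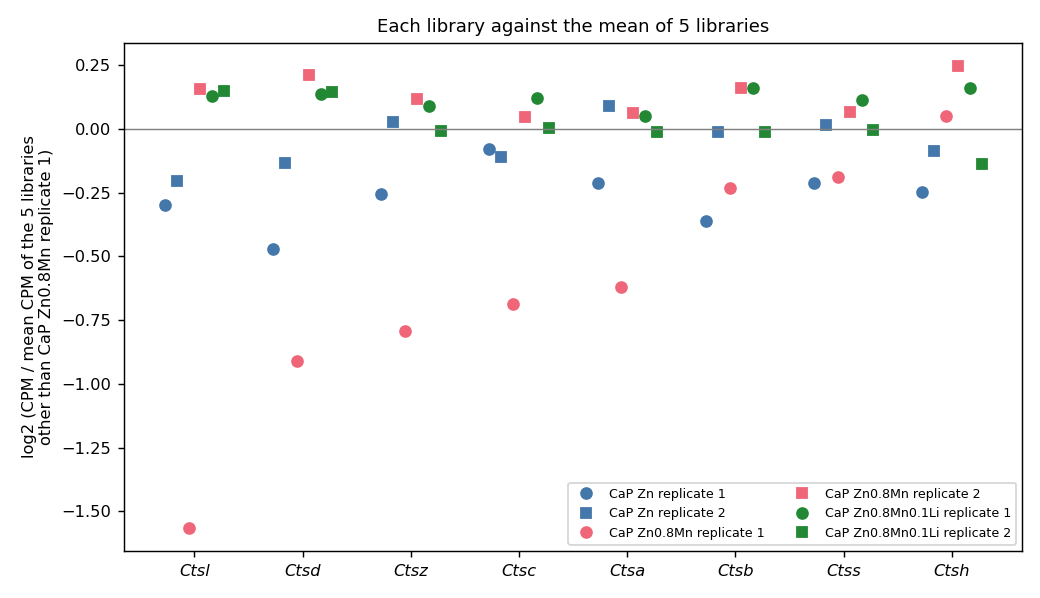
Log2 ratio of each library's CPM to the mean CPM of the 5 libraries other than CaP Zn0.8Mn replicate 1, for the 8 cathepsin genes. CaP Zn0.8Mn replicate 1 sits at -1.56 for Ctsl and 0.05 for Ctsh.

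With manganese in the zinc (CaP Zn0.8Mn against CaP Zn), 4 cathepsins had higher and 4 had lower fitted values, and none passed the test. Of the 13156 genes tested, 0% passed in either direction (0 by edgeR's quasi-likelihood test, 207, or 1.57%, at an unadjusted p under 0.05, and 1 by DESeq2), so the absence of calls is shared with all genes. The 8 log2 fold changes ran from -0.21 ± 0.54 (SE) for Ctsl to 0.32 ± 0.28 (SE) for Ctsh, with a median of -0.06 beside 0.0048 for all genes, of which 50.5% were above 0, and edgeR adjusted p between 0.773 and 0.964. Without CaP Zn replicate 1 the value of 1 of 8, Ctsh, was above 0 and the median was -0.14. Only Ctsh had libraries that did not overlap, higher on CaP Zn0.8Mn, where 12.5% of all genes were higher without overlap. Without CaP Zn0.8Mn replicate 1 all 8 fitted values were above 0, with a median log2 fold change of 0.28 beside -0.0084 for all genes and 48.2% of all genes above 0. The largest of these were 0.50 ± 0.16 (SE) for Ctsd (unadjusted p = 0.00627) and 0.41 for both Ctsh and Ctsl (SE 0.24 and 0.14), and the edgeR adjusted p was 0.967 for all 8, while 0.0152% of all genes passed as lower and 0% as higher. Ctsd and Ctsl had an unadjusted p under 0.05 there, 2 of 8, where 2.5% of all genes had one with higher values. In that fit the single CaP Zn0.8Mn library is assumed to vary like the other groups, and 7 of the 8 genes (all but Ctsa) stood above both CaP Zn libraries, where 32% of all genes did. Leaving out CaP Zn replicate 1 as well gave 7 of 8 above 0, with Ctsa at -0.024, and a median of 0.17. With CaP Zn0.8Mn replicate 1 alone in its group, whose spread was then also taken from the other groups, 5 cathepsins passed as lower by edgeR: Ctsl by a log2 fold change of -1.32, Ctsz by -0.69, Ctsd by -0.63, Ctsc by -0.61 and Ctsa by -0.58, where 30.4% of all genes passed as lower. The direction of this comparison thus turned with which of the CaP Zn0.8Mn libraries was kept.

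Where the zinc held both added metals (CaP Zn0.8Mn0.1Li against CaP Zn), the log2 fold changes of all 8 cathepsins were above 0, and none passed the test. Apart from Ctsd at 0.44 and Ctsl at 0.39 they ran from 0.07 ± 0.30 (SE) for Ctsa to 0.25 ± 0.28 (SE) for Ctsb. The median was 0.17 beside 4.7e-05 for all genes, of which 50% had values above 0. Without CaP Zn replicate 1, the lower CaP Zn library for 7 of the genes, 7 of 8 were above 0 and the median was 0.10, with Ctsa at -0.07, Ctsz at 0.01 and Ctss at 0.04. Each had an edgeR adjusted p of 1.00, and of all genes 0% passed (29, or 0.22%, at an unadjusted p under 0.05, and 0 by DESeq2). Ctsc, Ctsd and Ctsl had both CaP Zn0.8Mn0.1Li libraries above both CaP Zn libraries, 3 of 8, where 16.7% of all genes did. The libraries of this pair of groups do not include the one that stood apart, which entered only through the shared estimate of spread: without it the SEs ran from 0.08 for Ctsc to 0.20 for Ctsh, and the adjusted p from 0.629 to 0.988. Unadjusted p under 0.05 was then reached by Ctsd and Ctsl, 2 of 8, where 2.68% of all genes reached it with higher values.

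With lithium added to the manganese alloy (CaP Zn0.8Mn0.1Li compared with CaP Zn0.8Mn), 7 cathepsins had higher fitted values and Ctsh had a lower one, and none passed. The largest log2 fold change was 0.60 ± 0.55 (SE) for Ctsl, followed by 0.39 ± 0.41 for Ctsd, 0.33 ± 0.27 for Ctsc and 0.31 ± 0.34 for Ctsz, and edgeR adjusted p ran from 0.680 to 0.859. The median was 0.28, beside 49.9% of all genes with values above 0. Of all genes 0% passed with edgeR (316, or 2.4%, at an unadjusted p under 0.05, and 3 by DESeq2), and 0 of the 8 had libraries that did not overlap, where 17.1% of all genes were higher and 17.5% lower without overlap. Without CaP Zn0.8Mn replicate 1 the values ran from -0.23 ± 0.24 (SE) for Ctsh to 0.01 ± 0.10 for Ctsc, 7 of 8 were below 0 (49.6% of all genes were above 0), and the edgeR adjusted p was 1.00 for each, while 0.0076% of all genes passed as higher and 0.0076% as lower. Ctsa, Ctsd, Ctsh, Ctsl and Ctsz, 5 of 8, had both CaP Zn0.8Mn0.1Li libraries below the single CaP Zn0.8Mn library, where 34.4% of all genes did. The 95% interval was then -0.41 to 0.28 for Ctsd and -0.31 to 0.28 for Ctsl on the log2 scale, and differences of such sizes were not detectable with these libraries. With CaP Zn0.8Mn replicate 1 alone in its group, again with the spread of the other groups, Ctsl (1.71), Ctsd (1.06), Ctsz (0.84), Ctsc (0.75) and Ctsa (0.64) passed as higher by edgeR, where 30.9% of all genes did. The 3 comparisons share libraries and are not independent of each other. An F test of any difference between the 3 alloys gave edgeR adjusted p from 0.945 to 0.958 for the 8 genes, and 0% of all genes passed it. With CaP Zn0.8Mn replicate 1 alone in its group, 5 cathepsins passed it, where 57.8% of all genes did.

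**Figure D4:**
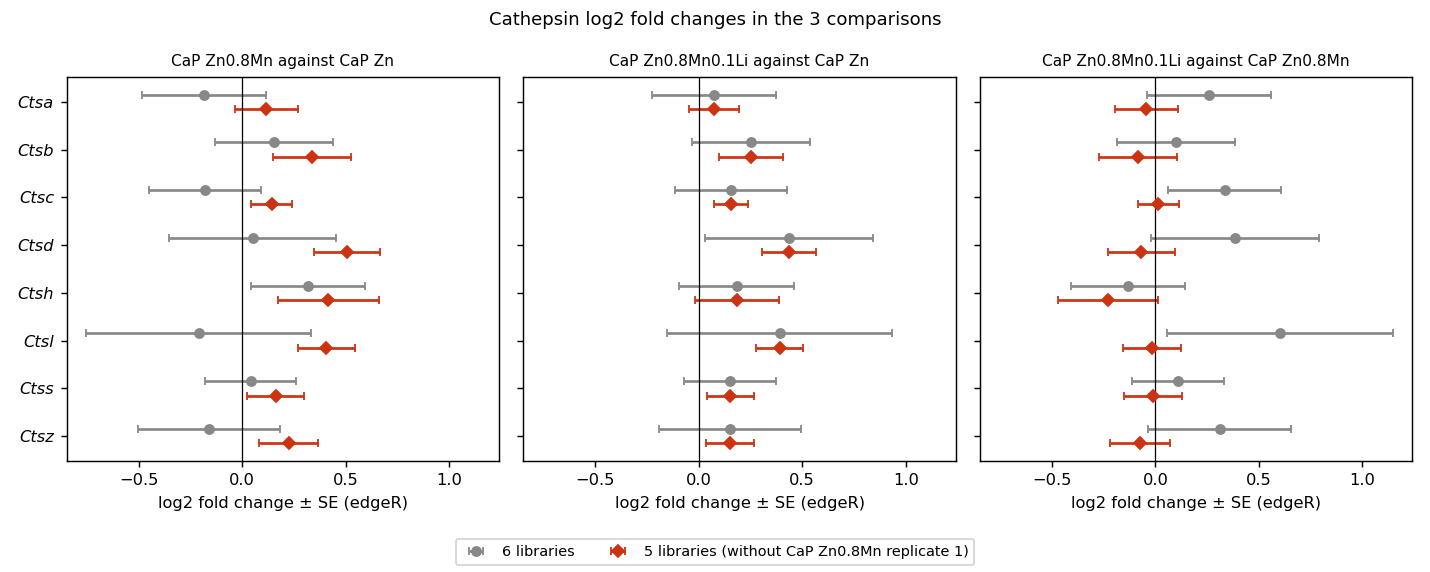
Log2 fold changes of the 8 cathepsins with SE bars from edgeR in the 3 comparisons, fitted to 6 libraries and to the 5 without CaP Zn0.8Mn replicate 1. On CaP Zn0.8Mn against CaP Zn, the point of Ctsl moves from -0.21 to 0.41. In CaP Zn0.8Mn0.1Li against CaP Zn the points keep their place while the bars of Ctsd shorten from 0.41 to 0.13.

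Other genes of the pathway were read from lists written by function. None of their tested members passed in any comparison, with 6 libraries or 5. Of the 15 other cathepsins 4 were tested: Ctsk, the collagenase of osteoclasts, stood at 67.3 and 106 CPM on CaP Zn, 40.1 and 81.4 CPM on CaP Zn0.8Mn, and 120.3 and 96.5 CPM on CaP Zn0.8Mn0.1Li. Like 5 of the 8 cathepsins it was lowest in CaP Zn0.8Mn replicate 1, while Ctse, an aspartic protease, was highest there at 17.4 CPM against 5.55 to 7.43 CPM elsewhere. Ctso stood at 28.8 CPM in that library against 17.7 to 21.2, and Ctsf at 51.6 against 45.6 to 55.3.

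The inhibitors split in the same library. Cstb, the cytosolic cystatin B that binds cathepsins B, H, L and S, stood at 221 and 268 CPM on CaP Zn, 79.0 and 293 CPM on CaP Zn0.8Mn, and 301 and 281 CPM on CaP Zn0.8Mn0.1Li. Cst3, the secreted cystatin C, stood at 837 and 975, 1064 and 949, and 904 and 819 CPM in the same order. In CaP Zn0.8Mn replicate 1 Cstb was thus the lowest and Cst3 the highest of the 6 libraries. Serpinb6a was also highest there, by little, at 171 CPM against 138 to 170 CPM in the others. On CaP Zn0.8Mn0.1Li against CaP Zn, 4 of 6 tested inhibitors were higher, where 50% of all genes were, with a median log2 fold change of 0.13.

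Among genes that sort and mature cathepsins, Lgmn, the asparaginyl endopeptidase that processes several of them, stood at 447 CPM in CaP Zn0.8Mn replicate 1 and 554 to 645 CPM in the others. Psap, the saposin precursor, stood at 825 CPM there and 889 to 1227 in the others, and M6pr, the cation-dependent mannose 6-phosphate receptor, at 325 against 415 to 478. The list as a whole split in that library: of its 15 genes of at least 20 CPM, 9 were higher than the mean of the other 5 and 6 were lower. The median log2 ratio was 0.39. Of the 15, 5 were at over 1.5-fold more, where 19.6% of all genes of that level were. Another 2 were at over 1.5-fold less, where 28.3% of all genes were. Igf2r, the cation-independent mannose 6-phosphate receptor, stood at 442 CPM there against 214 to 234, and Lrp1 at 2916 against 957 to 1147. On CaP Zn0.8Mn0.1Li against CaP Zn, 9 of the 17 genes of this list had values above 0, with a median log2 fold change of 0.01. Of all genes 50% had values above 0 in that comparison. The 13 regulators of lysosome transcription, which include Tfeb, had 6 above 0 and a median of -0.02, and Tfeb itself ran from 29.5 to 37.4 CPM over the 6 libraries. Of this list Fnip2 and Rragc, parts of the amino acid sensing machinery, were highest in CaP Zn0.8Mn replicate 1, at 442 and 171 CPM against 250.1 to 319 and 96.2 to 103, and Rraga stood at 53.1 against 43.3 to 55.4. Of the 11 regulators that reached 20 CPM, that library had 4 at over 1.5-fold more and 2 at over 1.5-fold less than the mean of the others. The shares of all genes of that level were 19.6% and 28.3%. Mitf, of the same family as Tfeb, stood at 170.4 CPM against 54.3 to 63.5, while Flcn at 28.0 against 47.9 to 56.0 and Mcoln1 at 40.6 against 59.3 to 71.5 were the lower pair.

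The other lysosomal hydrolases, 30 genes, all tested, had 20 above 0 on CaP Zn0.8Mn0.1Li against CaP Zn, where 50% of all genes were. Their median log2 fold change was 0.08. Without CaP Zn0.8Mn replicate 1, which leaves 1 library in its group, 26 of the 30 were above 0 on CaP Zn0.8Mn against CaP Zn. Of all genes 48.2% were above 0 there. The median of the 30 was 0.11, beside 0.28 for the cathepsins and -0.0084 for all genes. In CaP Zn0.8Mn replicate 1 against the mean of the other 5 libraries, the median log2 ratio of these hydrolases was -0.03. Of the 28 that reached 20 CPM, 9 were over 1.5-fold higher, where 19.6% of all genes of that level were. Another 4 were over 1.5-fold lower, where 28.3% were. Npc2, a cholesterol carrier of the lysosome, was 1 of these 4 at 270 CPM against 683 to 852. Grn stood at 777 against 735 to 844 and Hexa at 413 against 417 to 524. Of the genes of class II presentation, Cd74, the invariant chain that cathepsin S cleaves, stood at 734 and 977 CPM on CaP Zn, 464 and 1029.9 CPM on CaP Zn0.8Mn, and 1023 and 1018 CPM on CaP Zn0.8Mn0.1Li. Ifi30, the lysosomal thiol reductase, stood at 132 CPM in CaP Zn0.8Mn replicate 1 and 296 to 346 in the others, and H2-DMa at 10.2 against 12.3 to 14.8. Several genes of this list with few counts went the other way there: Ciita, the class II transactivator, had 59 counts against 0 to 1, H2-Aa had 15 against 0, H2-Eb1 had 20 against 0 to 9, and H2-DMb2 had 22 against 2 to 11. H2-DMb1 had 8 counts against 0 to 1 and H2-Oa 18 against 2 to 17. H2-Ab1 had 9 against 3 to 9, and H2-Ob had 13 against 10 to 22.

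The mean centred log2 CPM of the 8 cathepsins was -0.15 and 0.06 for CaP Zn, -0.51 and 0.24 for CaP Zn0.8Mn, and 0.23 and 0.13 for CaP Zn0.8Mn0.1Li. Of 7293 genes of at least 20 CPM, the 5 nearest to it by root mean square difference over the 6 libraries included Psmb9 (0.03), Cd63 (0.05), Metrnl (0.05) and Spns1 (0.05). The cathepsins' own distances to their mean ran from 0.07 for Ctsa to 0.36 for Ctsl. Over the 5 libraries the nearest were Myl6 (0.02), Rpl9-ps6 (0.02), Dstn (0.03), Cstb (0.03) and Actg1 (0.03), with 0 genes in common between the lists. Rpl9-ps6 is a pseudogene of a ribosomal protein gene, and its reads cannot be told from those of near-identical copies.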

How the data were processed

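Whole-number read counts for 54532 genes in 6 libraries were deposited by the authors with no normalization, and FPKM values, deposited beside them, were used to compare levels between genes and in alternatives. Build mm9 is named in the submitters' processing notes, but 53499 of 54409 identifiers matched to GENCODE M21 (98.3%) have GRCm38 coordinates in the tables, which are printed as GRCm38. The aligner, counting program and strand setting were not given in the sources used here. These tables hold 0 columns of other samples. Groups came from the treatment labels and replicate numbers from the titles.

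Counts of the 13156 genes kept by filterByExpr were fitted with edgeR 4.0.16 in R 4.3.3 (TMM, robust quasi-likelihood, group means, 3 residual degrees of freedom). All tests were two-sided and Benjamini-Hochberg adjusted over all genes, with 0.05 as threshold. CPM is scaled with TMM factors, and log2 fold changes give the first-named alloy over the other. Counts of the 2 libraries of a group differed by more than sampling noise (chi-square per gene 10.6, 248 and 5.71). The cathepsins and gene lists were chosen with earlier results of these data known. Named were all 8 cathepsins, the 3 genes of highest mean FPKM in each list and any that passed, and the 5 genes nearest to the mean profile, of which 1 is not reported here. Ctse, Tfeb, Mitf, Flcn, Mcoln1, Igf2r and Lrp1 were added after their values were seen. So were Ciita, H2-Aa, H2-Ab1, H2-Eb1, H2-DMb1, H2-DMb2, H2-Oa, H2-Ob, the cell type markers and the overlapping genes named. Alternatives, in the closing section, used DESeq2 1.42.0 and limma 3.58.1.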

Additional observations from a re-analysis of the deposited data

How the results depend on the processing

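No cathepsin passed the test in any comparison with 6 libraries under the alternatives that keep all of them (relative log expression size factors, library totals, DESeq2, limma-voom with and without quality weights, other filters, the replicate block, log2 FPKM and the rest). The fold changes kept their sign under them in all cases but that of Ctsd on CaP Zn0.8Mn against CaP Zn, which was -0.052 with limma-voom, -0.054 with its quality weights, -0.056 on log2(FPKM + 1) and on log2(FPKM + 0.1), and -0.014 with the replicate number as a block. As a share of summed FPKM the cathepsins differed by 0.0074 percentage points in that comparison. With coding transcript lengths the mean FPKM was 300.2 for Ctsa, 546 for Ctsb, 38.8 for Ctsc, 4.56 for Ctsh and 241 for Ctsl. Same-numbered libraries did not deviate together in every pair of groups (r across genes 0.263, -0.162 and -0.0947). These values cannot decide whether the numbers pair the samples, since each group gives only 1 difference between its replicates. CaP Zn0.8Mn replicate 1 enters the values of 0.263 and -0.0947. It does not enter that of -0.162, for CaP Zn with CaP Zn0.8Mn0.1Li. The block gave 0 calls in each comparison. Leaving out libraries gave between 0 and 5 passing cathepsins on CaP Zn0.8Mn against CaP Zn, on CaP Zn0.8Mn0.1Li compared with CaP Zn0.8Mn and in the F test, the 5 only without CaP Zn0.8Mn replicate 2, and log2 fold changes on CaP Zn0.8Mn against CaP Zn from -0.58 to 0.12 for Ctsa, -0.067 to 0.34 for Ctsb, -0.61 to 0.16 for Ctsc, -0.63 to 0.51 for Ctsd, -1.32 to 0.41 for Ctsl, -0.10 to 0.16 for Ctss and -0.69 to 0.23 for Ctsz. On CaP Zn0.8Mn0.1Li against CaP Zn, Ctsa ran from -0.071 to 0.23, Ctsb from 0.088 to 0.44, Ctsc from 0.085 to 0.21, Ctsd from 0.28 to 0.62, Ctsh from 0.017 to 0.32, Ctsl from 0.35 to 0.44, Ctss from 0.041 to 0.27 and Ctsz from 0.015 to 0.30. On CaP Zn0.8Mn0.1Li compared with CaP Zn0.8Mn the ranges were -0.047 to 0.64 for Ctsa, -0.087 to 0.31 for Ctsb, -0.071 to 1.06 for Ctsd, -0.30 to 0.0081 for Ctsh, -0.018 to 1.71 for Ctsl, -0.014 to 0.25 for Ctss and -0.077 to 0.84 for Ctsz. The share of counts ran from -0.174 to 0.134 percentage points on CaP Zn0.8Mn against CaP Zn and from -0.0201 to 0.288 on CaP Zn0.8Mn0.1Li compared with CaP Zn0.8Mn. DESeq2 and limma-voom on 5 libraries tested 13627 genes, after a new filter. The cause of these changes was not tested. Depth limits Ctsh, at 109 to 137 counts a library.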
